A study of Mus musculus with 2 samples.

Results

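The numbered zinc finger protein genes (Zfp followed by a number) were examined in regulatory T cells (Tregs) sorted from mouse fat. The members were all protein-coding rows of the deposited count table with such a symbol, leaving out Zfp36, which encodes an RNA-binding protein with a different kind of finger. This gave 223 members of the 10219 listed genes. Another 2 rows with such a symbol are annotated as pseudogenes and were not used.

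A pair of genotypes was compared, with 1 RNA sequencing library each, both from C57BL/6 mice aged 4 months. The knockout carried Hif1afl/fl;Foxp3Cre and the control carried Foxp3Cre, so Cre recombinase driven by the Treg transcription factor gene Foxp3 was present in both. Cre acts on the floxed Hif1a gene, whose protein is the partner of HIF-1 that is degraded when oxygen is plentiful, only in cells that express Foxp3. The labels give neither the number of mice behind a library nor the floxed part of Hif1a, and the study is described as a single experiment.

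Most members belong to the C2H2 class, in which pairs of cysteines and histidines hold a zinc ion and shape a small finger that reads a few bases of DNA. Proteins of this class string many fingers together, and their genes have multiplied by local duplication into clusters. A large group carries a KRAB domain, which recruits the corepressor TRIM28 (KAP1) and through it the histone methyltransferase SETDB1. KRAB zinc finger proteins are best known for silencing retroelements and for guarding imprinted loci. Members without KRAB include promoter-binding activators, chromatin cofactors and RNA-binding proteins.

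Counts over all listed genes summed to 11337415 for the knockout and 13472317 for the control, and members took 0.660% of the knockout and 0.587% of the control sum. Counts are given as CPM, counts per 1000000 of the TMM-scaled library, and a log2 ratio is knockout over control on CPM + 0.5. With 1 library per genotype there is no spread between replicates and no test, and a 95% counting interval (exact Clopper-Pearson, conditional on the sum of the counts) covers counting error only. Hif1a had 780 CPM in knockout and 1273 CPM in control cells and was 1.63-fold lower (1.59 to 1.68). Foxp3 had 46.4 CPM in knockout and 104 CPM in control cells. Of 17 macrophage markers 6 are listed (Lyz2, Cd68, Fcgr1, Pf4, Gpnmb and Ctss) while Adgre1, Csf1r and Mrc1 are among those that are not; each listed one was higher by 2-fold or more in knockout cells, and together they summed to 3657 CPM in knockout and 245 CPM in control cells. For 12 pan T cell markers the median log2 ratio was 0.28, with values from -0.48 for Trac to 1.24 for Trbc1. Il2ra, the receptor chain that marks Tregs, was 7.14-fold lower. The 6 listed Treg markers had a median log2 ratio of -0.56, with Il2ra and Foxp3 the lowest. Ctla4 was at -0.52, Ikzf2 at -0.14 and Ikzf4 at 0.05. Of other cell types, Dcn was the only 1 listed of 7 stromal markers. It was 3.47-fold higher, from 204 counts in knockout and 68 in control cells. The 5 listed erythroid markers had a median log2 ratio of 0.60. Of 7 adipocyte markers 2 are listed, Adipor2 at a log2 ratio of -0.12 and Lipe at 0.65. Directions were mixed among the 3 listed B cell markers. Ighm was 2.27-fold higher, whereas Igkc stood at a log2 ratio of -0.27 and Cd79b at -0.31. In bulk RNA, fewer cells of a type and less RNA per cell cannot be told apart, and the part of RNA from these other cells in the values below was not tested.

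The promoters of 3 members stand first because these genes lie at the ends of the family's range: Zfp281 had the largest log2 ratio, Zfp503 the smallest, and Zfp566 the next smallest. Each line gives the 250 bases before the annotated start, 5′ to 3′, from RefSeq on build GRCm38.p6. Capitals mark ACGTG or GCGTG on either strand, the core letters that HIF dimers bind.
Zfp281, chr1:136624651-136624900, plus strand: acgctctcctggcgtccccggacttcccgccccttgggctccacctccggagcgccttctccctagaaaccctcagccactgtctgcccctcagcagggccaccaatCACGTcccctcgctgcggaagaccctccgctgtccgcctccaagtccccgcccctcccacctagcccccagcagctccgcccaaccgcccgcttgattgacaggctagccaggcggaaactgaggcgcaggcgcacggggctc
Zfp566, chr7:30090511-30090760, minus strand: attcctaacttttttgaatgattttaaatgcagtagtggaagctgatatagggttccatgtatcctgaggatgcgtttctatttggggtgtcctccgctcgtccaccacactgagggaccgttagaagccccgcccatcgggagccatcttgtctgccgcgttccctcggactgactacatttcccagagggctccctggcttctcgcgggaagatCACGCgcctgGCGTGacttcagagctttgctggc
Zfp503, chr14:21989602-21989851, minus strand: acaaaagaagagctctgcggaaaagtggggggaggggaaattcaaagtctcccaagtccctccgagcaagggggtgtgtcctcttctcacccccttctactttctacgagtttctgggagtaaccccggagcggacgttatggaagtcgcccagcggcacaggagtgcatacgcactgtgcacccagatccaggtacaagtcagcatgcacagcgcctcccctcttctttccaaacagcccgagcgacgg

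The letters occur once in the Zfp281 window, 143 bases before the start, and in a pair in the Zfp566 window, 34 and 24 bases before it. The Zfp503 window holds neither word. A match of 5 letters is common. Among promoter windows of members, 50.7% of 225 windows (188 genes matched by symbol) held at least 1 match, against 57.8% of 9248 windows of the other listed protein-coding genes and 38.6% of all 32851 windows of the promoter table. ACGTG and GCGTG cannot start at the same base, but ACGTG overlaps its own reverse complement in CACGTG. The matches are a description of these letters and not of binding.

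As a family the members differed little between the libraries. By 2-fold or more, 7 of the 223 members were higher in knockout cells, where 10.9% of all listed genes were, and 6 were lower, where 8.41% of all listed genes were. Together these are 5.83% of the members, beside 19.3% of all listed genes in either direction. For the protein-coding genes that are no members, the shares of genes 2-fold or more apart were 10.6% higher and 8.55% lower, 19.1% in all. Within 1.5-fold lay 180 members, or 80.7%, compared with 61.3% of all listed genes. The median log2 ratio of the members was 0.09 (binomial interval 0.03 to 0.16), beside 0.0054 for all listed genes. Such a binomial interval of a median treats the genes as independent draws. It leaves out any error of the scaling or between libraries of a genotype. Scaling the libraries on the pan T cell markers instead put the members at -0.19 and all listed genes at -0.28. A direction given below for a gene or group whose log2 ratio or median lies between 0 and 0.28 holds under the TMM scaling. It turns negative under the pan T cell scaling. The median absolute log2 ratio was 0.34 for the members and 0.44 for all listed genes. At 4-fold or more stood 2 members, Zfp281 and Zfp503. By counting error alone, the interval of the fold lay above 1 for 80 members, below 1 for 50, and included 1 for 93.

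**Figure D1:**
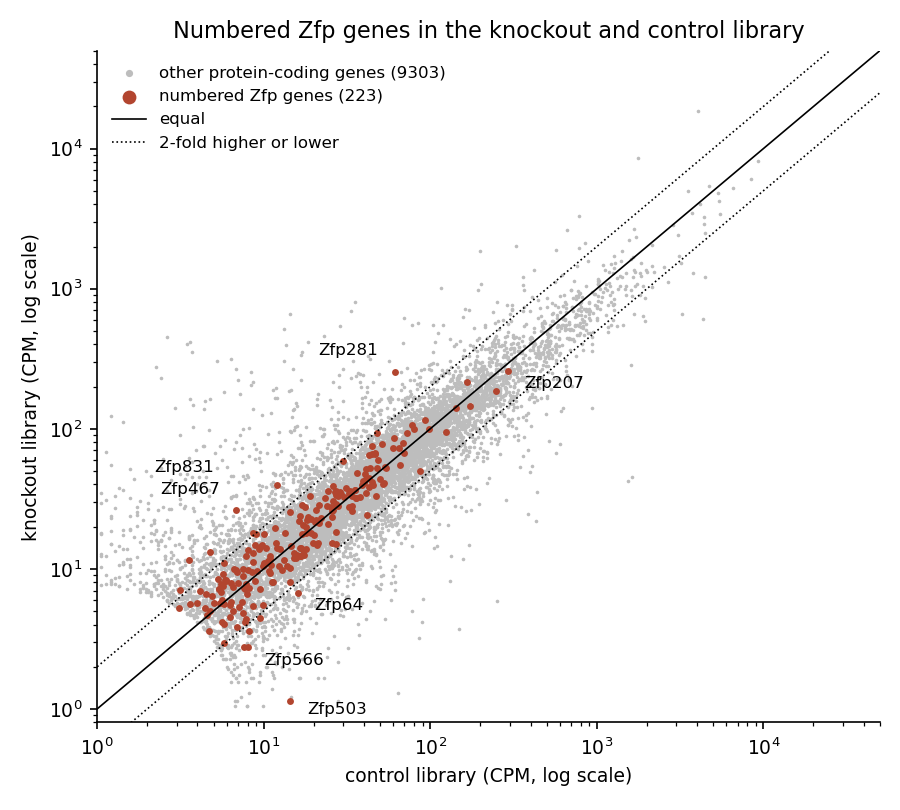
CPM in knockout cells (vertical, log scale) against the control library (horizontal, log scale). Red points are the 223 members and grey points the other 9303 listed protein-coding genes. All members are shown; other genes below the ends of the axes are not. The solid line marks equal levels and dotted lines mark 2-fold; 7 members lie above the upper dotted line on the CPM + 0.5 scale and 6 below the lower one.

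The members were also set against listed genes of like abundance, since they are weakly expressed. Their median level was 15.4 CPM in knockout and 16.5 CPM in control cells, and that of the other protein-coding genes 36.1 CPM in knockout and 35.5 CPM in control cells. The quartiles of the members' mean CPM were used as edges of 4 bins, which held 8680 other protein-coding genes. In the lowest bin, from 4.12 to 8.24 CPM, 12.5% of 56 members and 29.8% of 1017 other genes were at least 2-fold apart. In the next bin, up to 15.7 CPM, the shares were 5.45% of 55 members and 23.8% of 1322 other genes. Between 15.7 and 33.7 CPM they were 3.57% of 56 members and 17.7% of 2031 other genes, and above that 1.79% of 56 members and 15.5% of 4310 other genes. The members' share was the smaller in each of the 4 bins.

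Averaged over the 4 bins, 3.14% of the members and 12.8% of the other genes were higher by 2-fold or more, and 2.69% of the members and 8.97% of the other genes lower by as much. The mean of the bin medians of the log2 ratio was 0.08 for the members and 0.05 for the other genes, an order that turned with a correction for exon length and GC content chosen after the data were seen, under which the median of all members was 0.016 and the other genes were at 0.05. The median absolute log2 ratio averaged 0.33 for the members and 0.48 for the other genes. A counting interval of the fold that excluded equality was found for 58.3% of the members and 69.5% of the other genes, averaged in the same way. The members therefore lay closer to equality in these 2 libraries than listed genes at the same level, which is a description of 1 pair of libraries without a test.

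**Figure D2:**
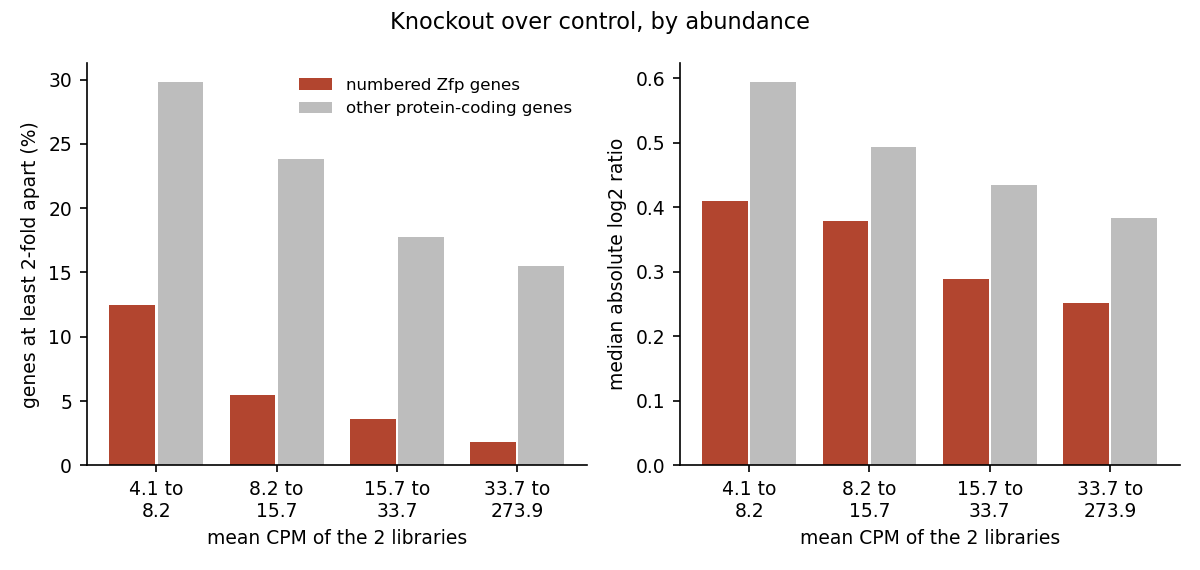
Left, percent of genes at least 2-fold apart between the knockout and control library; right, median absolute log2 ratio; both in 4 bins of mean CPM set by the members' quartiles. Red bars are the members and grey bars the other protein-coding genes; the red bar is the shorter in every bin, from 12.5% against 29.8% in the lowest bin to 1.79% against 15.5% in the highest.

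The table sets a limit on what could be seen. The lowest mean of the 2 counts is 50.5, for members as for all listed genes, so a gene weak in both libraries is not in the table. GENCODE M21 names 364 protein-coding genes by the same rule, and those that are not listed were not analysed here. The lowest member counts were 13 in knockout and 41 in control cells, and the highest were 2950 in knockout and 3868 in control cells, both for Zfp207.

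Zfp281 (ENSMUSG00000041483) had the largest log2 ratio of the members, 2.05. It encodes a zinc finger factor known for restraining pluripotency in mouse embryonic stem cells. It had 2923 counts and 254 CPM in knockout cells, against 811 counts and 61.0 CPM in control cells, and was 4.17-fold higher (3.86 to 4.51). In the knockout library its level was close to that of Zfp207, the most abundant member, which had 257 CPM in knockout and 291 CPM in control cells. The other most abundant members were Zfp706, with 185 CPM in knockout and 249 CPM in control cells, Zfp292, with 215 CPM in knockout and 165 CPM in control cells, and Zfp148.

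Zfp467, whose product promotes adipocyte over bone-forming differentiation of mouse stromal cells, had 26.2 CPM in knockout and 6.85 CPM in control cells, from 301 and 91 counts. It was 3.83-fold higher (3.02 to 4.89). Zfp831 had 39.9 CPM in knockout and 11.96 CPM in control cells and was 3.34-fold higher (2.78 to 4.03). Zfp827, whose human counterpart recruits the NuRD complex to telomeres, was 3.25-fold higher (2.31 to 4.63), from 132 counts in knockout and 47 in control cells.

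The KRAB member Zfp169 had 13.2 CPM in knockout and 4.74 CPM in control cells and was 2.79-fold higher (2.07 to 3.81). Zfp395, whose human counterpart is known as a hypoxia-induced factor, had only 81 counts in knockout and 42 in control cells and was 2.23-fold higher (1.52 to 3.32). The KRAB gene Zfp626, at a log2 ratio of 1.04, lay just inside the 2-fold rule, and Zfp654, at 0.97, just outside it. Below them followed Zfp260 at 0.97, with 93.6 CPM in knockout and 47.7 CPM in control cells, and Zfp652 at 0.92. The group of higher members thus spans abundant genes such as Zfp281 and genes near the lower edge of the table.

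Zfp503 (ENSMUSG00000039081) stood apart at the other end. Its product, also called NOLZ1, is a developmental repressor known from the embryonic brain. It had 13 counts and 1.13 CPM in knockout cells, against 192 counts and 14.4 CPM in control cells, and was 12.8-fold lower (7.29 to 24.4). On the CPM + 0.5 scale its log2 ratio was -3.20, while the next lowest member, Zfp566, had -1.38.

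Zfp566 and Zfp599 each had 32 counts in knockout cells, against 107 and 101 counts in control cells, and were 2.89-fold (1.93 to 4.44) and 2.73-fold lower (1.82 to 4.20). Both are KRAB genes. Zfp64, whose human counterpart maintains expression of the leukemia gene MLL, had 6.70 CPM in knockout and 15.9 CPM in control cells and was 2.38-fold lower (1.83 to 3.13). Zfp94 and Zfp747, both with KRAB, were 2.28-fold (1.58 to 3.35) and 2.14-fold lower (1.53 to 3.02).

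Zfp747 was the member just inside the 2-fold rule, at -1.01, and Zfp202, whose human counterpart represses genes of lipid metabolism, the one just outside, at -0.86, with 34 counts in knockout and 77 in control cells. Next came Zfp146, whose protein consists almost entirely of fingers, at -0.83, then Zfp213 at -0.81 and Zfp52 at -0.80. Of these, Zfp52 was by far the best counted, with 572 counts in knockout and 1157 in control cells. Apart from Zfp503, the lower members differed by less than 3-fold.

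**Figure D3:**
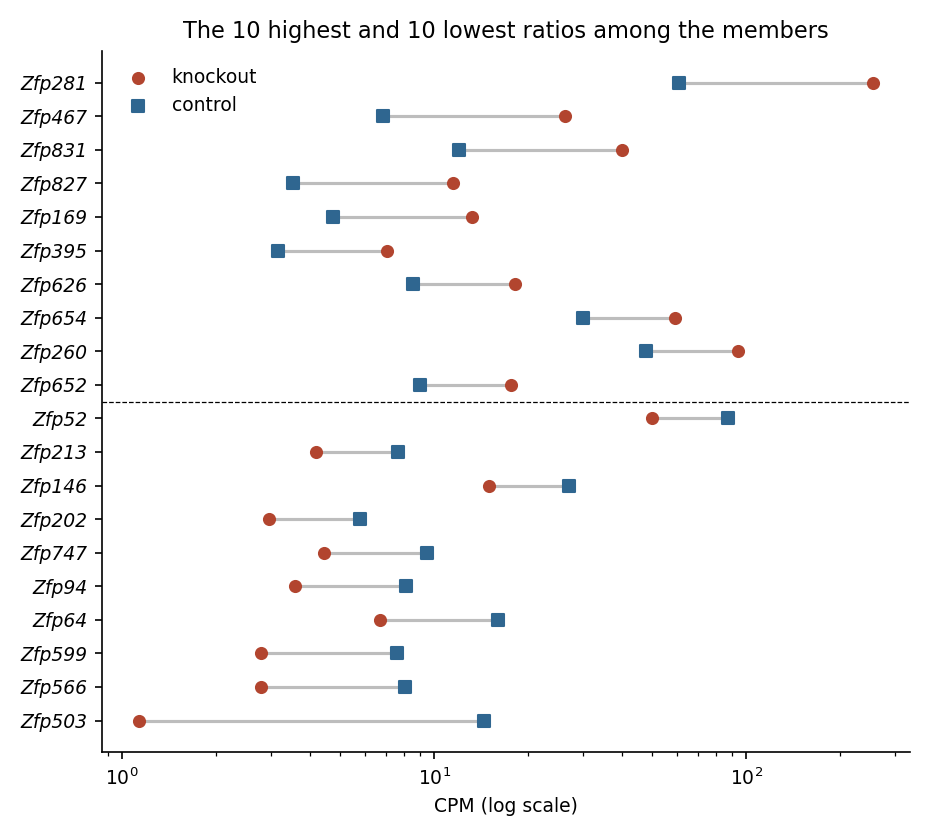
CPM (horizontal, log scale) of the 10 members with the highest and the 10 with the lowest log2 ratio; red circles are the knockout and blue squares the control library. Zfp281 shows 254 CPM against 61.0 CPM, and Zfp503 1.13 CPM against 14.4 CPM.

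Listed members with a role in lymphocytes differed by less than 2-fold. Only 5.83% of all members and 19.3% of all listed genes were at least 2-fold apart, so none among so few says little about the group. Of the 7 on the list, 3 are in the table, with a median log2 ratio of 0.37, or 0.08 under the pan T cell scaling. Zfp91, a ubiquitin ligase of the noncanonical NF-κB pathway, had 93.4 CPM in knockout and 72.4 CPM in control cells, a fold of 1.29 (1.18 to 1.41). Zfp318, needed in mouse B cells for surface IgD, stood at a fold of 1.48 (1.17 to 1.89), and Zfp131, a BTB-domain factor of T cell growth, at 1.05 (0.927 to 1.18).

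Among 7 members tied to adipocyte biology, 4 are listed. Of these 1, Zfp467, was at least 2-fold higher, beside 3.14% of all members and 10.9% of all listed genes. The median log2 ratio of the 4 was 0.39, beside 0.10 under the pan T cell scaling and 0.23 after correcting for length and GC content. Zfp217, a partner of repressive histone demethylase complexes, had 33.0 CPM in knockout and 18.9 CPM in control cells, a fold of 1.75 (1.49 to 2.06). Zfp407 and Zfp638 had log2 ratios of -0.25 and -0.02. Zfp638 encodes an RNA-binding protein and was among the better counted members, at 141 CPM in knockout and 142 CPM in control cells.

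Of 12 promoter-binding and chromatin factors 11 are listed. Only Zfp281 among them passed the 2-fold rule, or 9.09%, beside 5.83% of all members and 19.3% of all listed genes. A log2 ratio above 0 was found for 9 of the 11, beside 132 of all 223 members. The median of the 11 was 0.31. Correcting for length and GC content put that median at 0.17, and the pan T cell scaling put it at 0.03. Zfp148, a close relative of Zfp281 that binds similar GC-rich sites, had 145 CPM in knockout and 173 CPM in control cells, so these relatives lay on opposite sides of equality. Zfp687 and Zfp592, partners in a chromatin complex, had folds of 1.77 (1.42 to 2.22) and 1.27 (1.12 to 1.42). Zfp644, a partner of the histone methyltransferase G9a, was at 1.36 (1.25 to 1.48), Zfp292 at 1.30 (1.23 to 1.38) and Zfp384 at 1.24 (1.11 to 1.38).

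The remaining factors of that list lay close to equality or below it. Zfp143, which binds many promoters together with the general machinery, had 40.8 CPM in knockout and 40.02 CPM in control cells. Zfp410, the factor that sustains Chd4 expression, had 36.6 CPM in knockout and 35.2 CPM in control cells, and Chd4 itself 159 CPM in knockout and 138 CPM in control cells. Zfp367 and Zfp263 had log2 ratios of 0.11 and -0.37.

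Members that act on RNA, ribosomes or SUMO were within 2-fold in all 9 listed cases of 10, with a median log2 ratio of 0.04. This is near the share of all members, of which 5.83% were at least 2-fold apart, beside 19.3% of all listed genes. Zfp598, which senses collided ribosomes, and Zfp622, a factor of large ribosomal subunit maturation, had folds of 1.36 (1.13 to 1.64) and 1.46 (1.31 to 1.62). Zfp451, a SUMO ligase, was at 1.502 (1.36 to 1.66) and Zfp106, an RNA-binding protein, at 1.43 (1.30 to 1.57), though Zfp106 shares 24.2% of its transcript windows with other genes. Zfp326 and Zfp346 had log2 ratios of 0.04 and -0.09, and Zfp830 had -0.23. Per kb of exon, Zfp706 and the spindle assembly and splicing factor Zfp207 were among the members with the most counts. Zfp706 had 37.1 CPM per kb in knockout and 49.9 in control cells, and Zfp207 38.6 in knockout and 43.7 in control cells, while Zfp281 had 51.5 CPM per kb in knockout and 12.4 in control cells.

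Known silencers of repeats and imprints were likewise within 2-fold, with 5 of 8 listed and a median log2 ratio of -0.23. Only 5.83% of all members and 19.3% of all listed genes were at least 2-fold apart, so none among so few says little about this group. Zfp445, a guardian of imprinted methylation, had 36.7 CPM in knockout and 35.3 CPM in control cells. Zfp809, which recruits silencing to murine leukemia virus primer sites in mouse stem cells, had 35.0 CPM in knockout and 41.1 CPM in control cells, and was 1.18-fold lower (1.03 to 1.34). Zfp568, which represses a placental Igf2 transcript, was 1.26-fold lower (1.01 to 1.57). Zfp961 had a log2 ratio of -0.15, and Zfp932, at -0.36, shares 22.1% of its 100-base transcript windows with other genes.

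A further list held the corepressor that KRAB proteins use and genes for its partners. Of its 18 names 17 were listed, and these genes lay on both sides of equality. None was at least 2-fold apart, beside 19.3% of all listed genes. Of the 17, 6 had a log2 ratio above 0 and 11 below, beside 5147 above and 5072 below among all listed genes. The median was -0.12 and the median absolute log2 ratio 0.32. Trim28 itself had 63.6 CPM in knockout and 89.5 CPM in control cells, and was 1.41-fold lower (1.28 to 1.55), and Setdb1 had 38.7 CPM in knockout and 44.4 CPM in control cells. At the ends of the list stood Pphln1 and Smarcad1, at -0.62 and -0.55, and Chd3 and Atf7ip, at 0.66 and 0.59.

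The members were then grouped by domain, from GENCODE M21 coding sequences translated for all 223. A KRAB domain was found in 132 members and a SCAN domain, a dimerization module, in 11. Each call rests on 1 translated protein per gene. A domain held only by another isoform, or too unlike the profile, would be missed. Members without KRAB are therefore those in which none was found, and some may be KRAB genes. Finger counts have the same limit. KRAB members had a median of 12 C2H2 fingers and members without KRAB a median of 7, with up to 34 fingers in 1 protein. Of the KRAB members, 2 were higher and 4 lower by 2-fold or more, and their median log2 ratio was 0.06 (binomial interval -0.10 to 0.11). Of the 91 members without KRAB, 5 were higher and 2 lower by that much, with a median of 0.18 (0.07 to 0.33). These counts are 4.55% of the KRAB members and 7.69% of those without KRAB, both below the 19.3% of all listed genes. Per kb of exon the median level of KRAB members was 3.14 CPM in knockout and 3.02 CPM in control cells, and that of members without KRAB 3.92 CPM in knockout and 3.25 CPM in control cells.

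The KRAB median was the lower one in each finger class compared. It was 0.04 with KRAB and 0.23 without for 5 to 9 fingers, 0.06 with KRAB and 0.14 without for 10 to 14, and 0.04 with KRAB and 0.09 without for 15 or more. The intervals of these medians overlap. By finger number alone the medians ran from 0.16 for at most 4 fingers and 0.14 for 5 to 9 to 0.06 for 10 to 14 and 0.07 for 15 or more. The 11 SCAN members had a median of -0.15. Of them 0 were at least 2-fold apart, beside 5.83% of all members and 19.3% of all listed genes. After the length and GC correction the KRAB median was -0.04 and that of members without KRAB 0.17. The members' transcripts had a median GC content of 43.9%, and the other protein-coding genes one of 49.6%.

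Many members are neighbours in the genome. Runs were formed from members whose gene bodies lie within 250 kb of the next member in GENCODE M21, which gave 14 runs of at least 4 members with 87 members in all. Chromosome 7 held the most members, 52, followed by chromosomes 17 and 13 with 31 and 20. For the counts by sign below, 132 of all 223 members had a log2 ratio above 0 and 91 below. Among all 10219 listed genes these were 5147 above and 5072 below. On chromosome 13, a run of 12 KRAB genes had a median log2 ratio of 0.25, with 9 members above 0. Zfp712, Zfp429, Zfp595 and Zfp273 led it at folds of 1.69, 1.67, 1.66 and 1.69, while Zfp458 was at a log2 ratio of -0.37.

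Chromosome 17 held a pair of runs with opposite medians. The run of 9 with Zfp52, all KRAB genes, had a median of -0.40, with 6 members below 0. Zfp52 was 1.75-fold lower (1.58 to 1.94) and Zfp948 1.71-fold lower (1.48 to 1.99), and Zfp53 had 94.4 CPM in knockout and 125 CPM in control cells. Within the same run, Zfp943, Zfp942 and Zfp677 had folds of 1.23, 1.22 and 1.20. The run of 10 with Zfp563 and Zfp763 had a median of 0.26, with 9 members above 0.

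On chromosome 7, the run of 11 members that holds Zfp566 had a median of -0.35, with 9 members below 0. Yet Zfp260 and Zfp420, from the same run, stood at 1.96-fold (1.78 to 2.17) and 1.503-fold higher (1.19 to 1.91). All 8 members of the 2 runs on chromosome 8 had log2 ratios below 0, from -0.38 for Zfp868 to -0.0018 for Zfp866. When the libraries were scaled on pan T cell markers, every median above 0 among these 14 runs was below 0; the run of 12 was then at -0.04 and the run of 10 at -0.02, while the run of 9 was at -0.68 and that of 11 at -0.63. After the length and GC correction the run of 12 was at 0.06, the run of 10 at 0.26, the run of 9 at -0.43 and the run of 11 at -0.32. Members of a run resemble each other in sequence and are not independent.

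**Figure D4:**
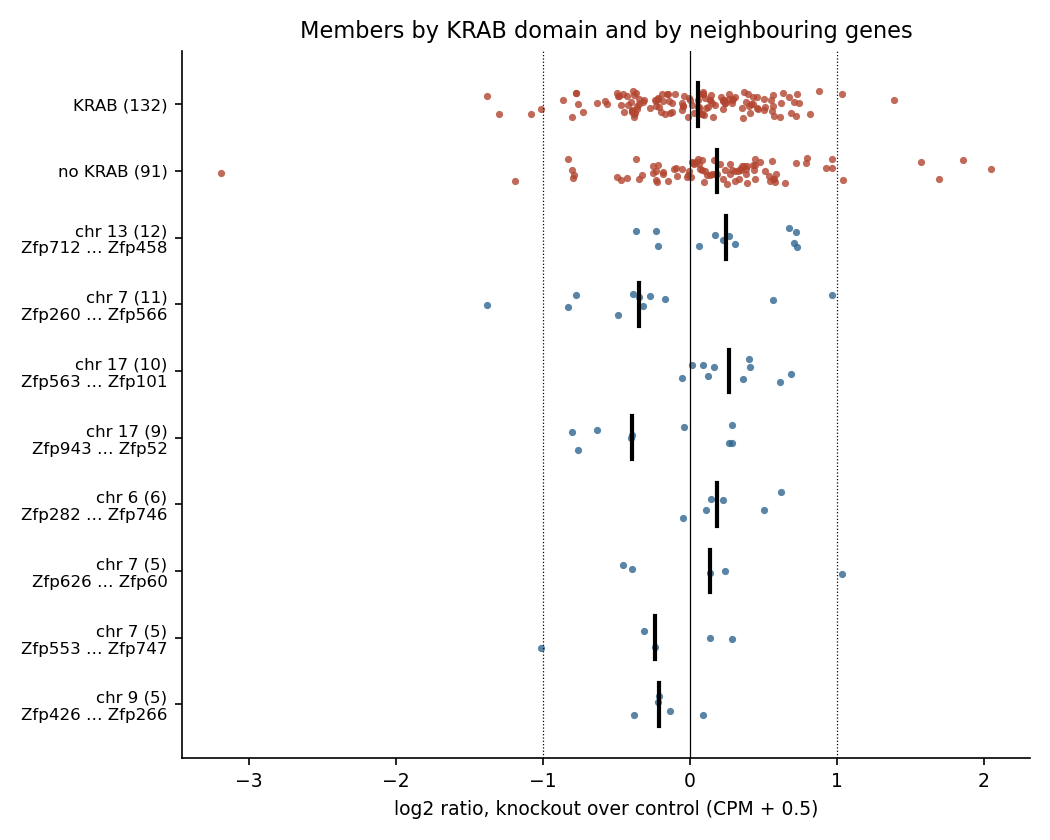
Log2 ratio, knockout over control (horizontal), of single members (points) with the median (black bar). Red rows show members with and without a KRAB domain, with medians of 0.06 and 0.18; blue rows show runs of at least 5 neighbouring members with their chromosome, number and end members, with medians from -0.40 to 0.26.

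How reads shared between genes were counted is not given in the sources used here. Of the 223 members, 34 share at least 10% of their 100-base windows with the transcripts of another gene on either strand, and 137 share none. The highest shares were 99.3% for Zfp935, 86.7% for Zfp433 and 67.3% for Zfp97, so the counts of these 3 are uncertain. Among the members at least 2-fold apart only Zfp566 and Zfp747 share 10% or more, at 13.1% and 11.9%, and Zfp281, Zfp467, Zfp831 and Zfp503 share none.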

How the data were processed

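Per the labels' protocols, RNA of sorted adipose Tregs was extracted with Trizol and sequenced from Illumina TruSeq libraries. The tools named are HTSeq 0.6.1, edgeR, TopHat2 2.0.12 and Bowtie2 2.2.3, and the build is mm8, per the submitters' processing notes. Annotation and strand setting: not given in the sources used here. For each gene the authors deposited raw counts, whole numbers without normalization. Beside them stand a log2 CPM, the authors' own log2 fold change, their p-values and, as scores, the mean count, a signed ratio of raw counts and the likelihood ratio statistic, per the file headers; of these only the authors' log2 fold change served, as an alternative.

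Counts were scaled by TMM over all listed genes (edgeR 4.0.16, R 4.3.3), and ratios used a pseudocount of 0.5 CPM. With 1 library per genotype no test was made; genes were counted at 2-fold or more on that scale, and intervals came from scipy 1.17.1. PCR copies are not independent molecules. The scaling and the intervals were also run on simulated counts with set folds. Those counts held counting error only and a smaller share of changed genes than the data. They therefore cannot show how well the scaling or the intervals do for these libraries.

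Exon length, gene order and coding sequences came from GENCODE M21 (GRCm38), whose build differs from the one named, so no gene coordinates are given except for RefSeq promoters. Fingers were counted by the spacing of cysteines and histidines in the translated sequence; KRAB and SCAN were found with HMMER 3.4 profiles built from 79 and 9 members, at an E-value of at most 1e-05. RefSeq proteins, named in the plan, were not used here.

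Named genes were the 10 members at each end, the 5 most abundant, those next to the 2-fold rule, listed members of the role lists and up to 2 genes at each end of other lists; further members are named from the runs, the promoter windows, shared windows and Chd4, chosen after their values were seen. The members and lists were chosen with earlier results of these data known.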

Additional observations from a re-analysis of the deposited data

How the results depend on the processing

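Scaling by total counts or DESeq2 size factors, pseudocounts of 1 and 0.1 CPM, a mean of at least 5 CPM and the authors' log2 fold change each left the members' median within its interval and the counts of 7 higher and 6 lower members within 1.5 times. Asking also for a counting interval that excludes equality gave 7 and 6 again, and 10 abundance bins put genes of like abundance at 0.05. Scaling on pan T cell markers moved the median of all listed genes to -0.28, that of the members to -0.19 and that of genes of like abundance to -0.23, and gave 5 higher and 16 lower members, or 9.42% beside 21.8% of all listed genes. The correction for length and GC content, chosen after the data were seen, gave a member median of 0.016, under the 0.05 of genes of like abundance; the cause was not tested. It and leaving out members with shared windows gave 4 lower members each. At 1.5-fold, 26 members were higher and 17 lower, 19.3% beside 38.7% of all listed genes; at 4-fold, 1 was higher and 1 lower, beside 511 of all 10219 listed genes in either direction. Of 399 alternative log2 ratios of 50 named members, 360 stayed within the counting interval and 39 did not. Of those 39, 31 came from the pan T cell scaling, 7 from the length and GC correction and 1 from the pseudocount of 1 CPM. Most named members, 31 of 50, thus left their interval under the pan T cell scaling. Zfp367, Zfp131, Zfp445, Zfp410, Zfp326 and Zfp143 turned negative under it. No paired analysis was possible because each genotype has 1 library, and none could be left out. Members below about 8 CPM rest on few counts, so their folds are imprecise.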

Other observations

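Other zinc finger families in the same table gave a mixed picture beside the numbered members, of whom 5.83% were at least 2-fold apart. Among 33 Zbtb genes, whose products join a BTB domain to C2H2 fingers, 4 were higher and 2 lower by 2-fold or more, which is 18.2%, close to the 19.3% of all listed genes. Zbtb46 had 15.9 CPM in knockout and 5.79 CPM in control cells, and Zbtb18 had 30.8 CPM in knockout and 11.7 CPM in control cells. Zbtb32 had 9.83 CPM in knockout and 59.0 CPM in control cells, and Zbtb38 had 68.0 CPM in knockout and 171 CPM in control cells. Of 11 Klf genes, 3 were at least 2-fold apart, or 27.3%. Klf3 had 89.7 CPM in knockout and 7.22 CPM in control cells, and Klf10 had 25.7 CPM in knockout and 72.9 CPM in control cells.

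Of 13 Zscan and Zkscan genes, 1 was at least 2-fold apart, or 7.69%: Zscan29 had 88.1 CPM in knockout and 41.6 CPM in control cells. Of 15 Zc3h genes, which encode CCCH-type RNA-binding proteins, 0 were at least 2-fold apart. These families are small, and the differences between them were not tested.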
